A study of Mus musculus with 68 samples.

Results

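Mammary tumours of backcross mice were divided by the level of Amhr2, a gene on distal chromosome 15, and every other measured gene was compared between the groups. The split used 56 of the 68 tumour arrays, those whose mean over the 18S ribosomal RNA control probe sets lay below 8 on the log2 scale. A tumour was called Amhr2 high if 1 of the 3 Amhr2 probe sets, the brightest, read above 6.5, and Amhr2 low if it read 6.5 or below. This gave 27 Amhr2-high and 29 Amhr2-low tumours from 56 different animals, so that 48.2% were high. The groups were chosen by these measured Amhr2 values and were taken as the putative genotypes at distal chromosome 15. No genotype was given in the labels, and they do not say which parental allele went with the high level.

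AMHR2 is the type II receptor for anti-Müllerian hormone, a serine/threonine kinase of the TGF-beta receptor family. It pairs with the type I receptors ACVR1 and BMPR1A and signals through the SMADs of the BMP branch. The gene is best known from granulosa, Sertoli and Leydig cells and from the mesenchyme around the Müllerian duct, and the mammary gland is not its main site of expression. In a backcross each animal carries either 1 or 2 copies of the recurrent parent's allele at a given autosomal locus, and neighbouring loci are inherited together until a crossover separates them.

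All tumours arose in animals carrying the MMTV-PyMT transgene, in which the mouse mammary tumour virus promoter drives the polyoma middle T oncogene mainly in mammary epithelium. The strain background was the same for both groups: hybrids of NZB and PyMT animals backcrossed to FVB. The sex, age, treatment and stage of the animals were not given, and no group was labelled by the submitters. Total RNA of whole tumours was labelled with biotin and hybridised to Affymetrix arrays. In such bulk samples, fewer cells of a type and less RNA per cell cannot be told apart. The values are log2 RMA values, so a difference of 1 is a 2-fold difference.

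The promoters of Amhr2 and of the chromosome 15 neighbours that differed with it are shown because these are the genes the results turn on. RefSeq promoter windows (GRCm38.p6) of 300 bases, 250 before and 50 after the gene start, are given for 3 of these 5 genes, and Slc48a1 and Gm17546 were not matched. The windows are chr15:102445117-102445416 on the plus strand for Amhr2, chr15:97963979-97964278 on the plus strand for Tmem106c and chr15:102670998-102671297 on the minus strand for Atp5g2. Capitals mark matches to the motifs described after the sequences, and each is written 5′ to 3′ on the gene's own strand.
Amhr2: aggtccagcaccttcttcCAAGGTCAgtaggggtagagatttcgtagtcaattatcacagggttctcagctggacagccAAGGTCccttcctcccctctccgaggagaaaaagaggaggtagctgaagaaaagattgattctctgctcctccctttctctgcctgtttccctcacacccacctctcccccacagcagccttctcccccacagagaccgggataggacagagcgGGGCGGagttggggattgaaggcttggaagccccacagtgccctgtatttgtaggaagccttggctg
Tmem106c: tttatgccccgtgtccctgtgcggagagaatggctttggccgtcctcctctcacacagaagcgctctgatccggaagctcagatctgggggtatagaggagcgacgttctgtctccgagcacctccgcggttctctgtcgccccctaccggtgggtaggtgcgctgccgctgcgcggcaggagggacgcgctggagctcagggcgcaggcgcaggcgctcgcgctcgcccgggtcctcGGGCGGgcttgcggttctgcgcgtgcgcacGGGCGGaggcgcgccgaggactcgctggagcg
Atp5g2: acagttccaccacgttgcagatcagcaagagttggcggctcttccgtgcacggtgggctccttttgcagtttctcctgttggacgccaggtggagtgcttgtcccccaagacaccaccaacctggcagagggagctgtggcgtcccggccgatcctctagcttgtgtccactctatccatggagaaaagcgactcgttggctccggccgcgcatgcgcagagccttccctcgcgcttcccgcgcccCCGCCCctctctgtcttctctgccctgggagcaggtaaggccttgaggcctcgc
The motifs searched on both strands were CAAGGTCA, a site for the steroidogenic factor NR5A1, its core AAGGTC, the GC box GGGCGG and the TATA sequence TATAAA; the core lies inside CAAGGTCA. The Amhr2 window held CAAGGTCA at bases 19 to 26 and the core alone at bases 80 to 85, both on the gene's strand. Of 32544 promoter windows, 1.53% held CAAGGTCA and 12.3% held AAGGTC. The GC box was in all 3 windows, at bases 234 to 239 for Amhr2, at 239 to 244 and 269 to 274 for Tmem106c, and on the opposite strand at 247 to 252 for Atp5g2, where it reads CCGCCC. It was in 35.9% of all windows. TATAAA was in none of the 3 and in 13.6% of all. These matches describe the reference sequence and not the backcross alleles.

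Both groups were present in each of the technical array sets that the 56 tumours fall in, namely 1, 3 and 4. Sets 3 and 4 are blocks of arrays found from their shared shifts, and set 1 is the remainder. Array set 1 held 21 high and 18 low tumours, array set 3 held 4 and 5, and array set 4 held 2 and 6. The comparison therefore kept the array set as a block. The mean 18S control level had a median of 6.0 in the high and 5.90 in the low group. The 3′ minus 5′ difference of the Gapdh control probe sets, a measure of RNA integrity, ranged from -0.22 to 0.21 in high and from -0.24 to 0.22 in low tumours. These ranges overlapped almost wholly, while the medians were -0.15 in high and -0.04 in low tumours.

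The Amhr2 values themselves chose the groups and are given as a description. On the probe set that made the split the lowest, median and highest values were 6.67, 7.02 and 7.55 in the high group, with a mean of 7.08 ± 0.23 (SD, n = 27). In the low group they were 5.54, 5.92 and 6.40, with a mean of 5.92 ± 0.23 (SD, n = 29). An empty interval of 0.27 lay between the groups, and their means were 1.15 apart, or 2.23-fold. The threshold was set on these same values, so the lack of overlap follows from the rule. Within 0.5 of the threshold lay 22 tumours. The tumours nearest the threshold read 6.23, 6.32 and 6.40 below it and 6.67, 6.68 and 6.85 above it. In each array set the groups lay at nearly the same heights, with high and low means of 7.08 and 5.90 in set 1, 7.09 and 5.91 in set 3, and 6.97 and 6.01 in set 4. The median of all values on these arrays was 5.42, so that Amhr2 read only a little above it in low tumours.

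The other probe sets of Amhr2 measured the same gene and are likewise given without a test. On the second probe set, also of the x_at class whose probes can match more than a single transcript, the high tumours ran from 5.52 through a median of 6.14 to 6.78, and the low tumours from 3.95 through 4.45 to 5.31. The groups did not overlap, and their means, 6.14 ± 0.37 (SD, n = 27) and 4.51 ± 0.32 (SD, n = 29), were 1.63 apart, or 3.09-fold. On the third probe set the means were 4.84 ± 0.23 (SD, n = 27) and 4.36 ± 0.18 (SD, n = 29), 0.48 apart, or 1.39-fold. Here 6 low tumours reached the range of the high group, at values below the median of the arrays. Across the 56 tumours the rule's probe set correlated with the other probe sets at Pearson's r of 0.954 and 0.793, respectively, on shared arrays.

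**Figure D1:**
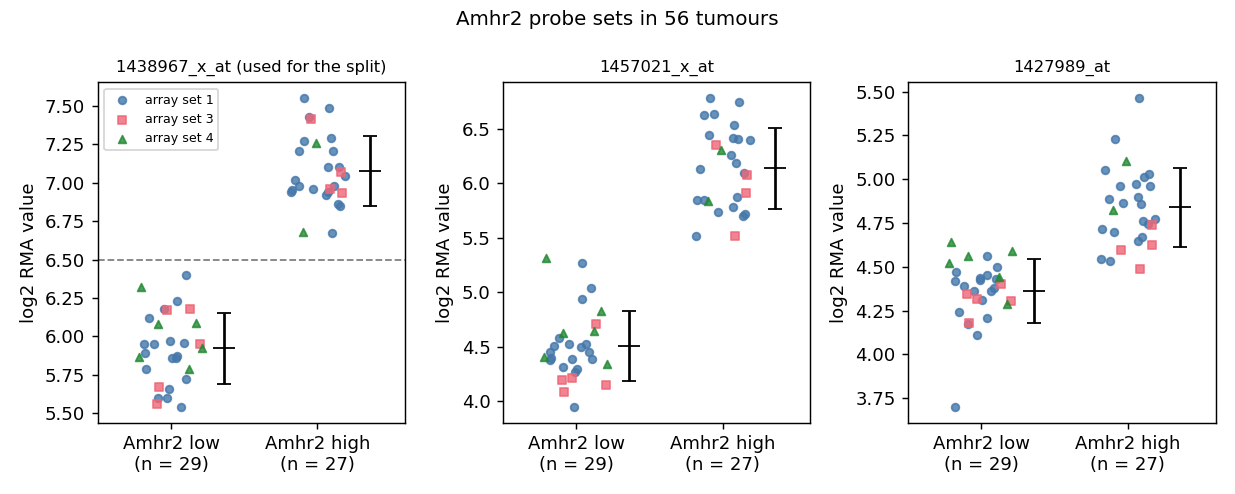
The log2 RMA value (y axis) of each of the 3 Amhr2 probe sets is plotted for every tumour in the low (n = 29) and high (n = 27) groups, with symbols for the array sets and the mean ± SD beside the points. The dashed line is the threshold of 6.5 on the probe set that made the split; the groups do not touch on the first and second probe sets and overlap on the third.

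The comparison of all other genes asked which of them, near or far, differed between tumours on either side of the split. Of 12561 genes tested with limma, 3 passed a Benjamini-Hochberg adjusted p of 0.05, a background of 0.0239%. All 3 lay on chromosome 15 within 10 Mb of Amhr2: the long non-coding RNA Gm17546 was higher in Amhr2-high tumours, 0.00796% of genes being called in that direction, and the haem transporter gene Slc48a1 and Tmem106c, which encodes a membrane protein, were lower, 0.0159% being called in that direction. When every named probe set was tested on its own, 5 of 22025 were called (0.0227%), and these added Atp5g2, a gene for the membrane ring subunit of mitochondrial ATP synthase. With the 39 tumours of array set 1 alone, limma called 0 local genes, against 23 at an unadjusted p below 0.05. No gene elsewhere on chromosome 15 or on another chromosome was called, against 20 and 437 genes, respectively, at an unadjusted p below 0.05.

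Gm17546 lies 6.62 Mb before Amhr2 on the chromosome and had the smallest p-value. Its values were 4.76, 5.42 and 5.85 (lowest, median and highest) in Amhr2-high tumours and 4.36, 4.87 and 5.74 in Amhr2-low tumours. The ranges overlapped, but 25 of 27 high tumours lay above the low median. The difference was 0.51 (SE 0.08, 95% interval 0.36 to 0.67), or 1.42-fold, with a limma adjusted p of 0.000223. It was 0.52, 0.48 and 0.50 within array sets 1, 3 and 4. Its means, 4.85 in Amhr2-low and 5.37 in Amhr2-high tumours, both lay below the median of the arrays, 5.42. It entered the test by its 95th percentile, and a stricter filter on the mean left it out. The values of Gm17546 followed the rule's Amhr2 probe set most closely, with r = 0.685 over 56 tumours after array set means were taken out. That probe set made the groups, so this r in part restates the difference above. Nr6a1 came next at 0.445. At the other end stood Slc48a1 at -0.597, Slc38a1 at -0.50 and Tmem106c at -0.50. The size of r had a median of 0.106 and a 99th percentile of 0.357 over all genes, and all these values share the arrays.

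Slc48a1 encodes a transporter that moves haem out of endosomes and lysosomes, and lies 4.66 Mb before Amhr2. Its values were 7.92, 8.42 and 8.98 in Amhr2-high tumours and 8.40, 8.70 and 9.0 in Amhr2-low tumours. The ranges overlapped at the top, and 25 of 27 high tumours lay below the low median. The level fell by 0.29 (SE 0.05, 95% interval -0.38 to -0.19), or 1.22-fold, in the high group, with a limma adjusted p of 0.00244. The differences within array sets 1, 3 and 4 were -0.25, -0.54 and -0.15. A second Slc48a1 probe set differed by -0.06 (SE 0.05), with a limma adjusted p of 0.996 over all probe sets.

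Tmem106c lies 4.48 Mb before Amhr2. Its representing probe set read 8.10, 8.49 and 9.05 in Amhr2-high tumours and 8.41, 8.75 and 9.46 in Amhr2-low tumours. Again the groups overlapped, with 23 of 27 high tumours below the low median. The level fell by 0.24 (SE 0.05), or 1.18-fold, with a limma adjusted p of 0.0353, and the differences within the array sets were -0.25, -0.17 and -0.28. The second Tmem106c probe set went the same way and further, from 6.92, 7.46 and 8.09 in high to 7.18, 7.86 and 8.88 in low tumours. Its difference was -0.38 (SE 0.06), with a limma adjusted p of 0.000785 over all probe sets.

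Atp5g2 lies 0.218 Mb beyond Amhr2 and is the nearest gene with a called probe set. On that probe set the values were 5.36, 5.57 and 6.02 in Amhr2-high tumours and 5.62, 6.01 and 6.35 in Amhr2-low tumours. Of the 27 high tumours, 26 lay below the low median and 15 below every low tumour. The difference was -0.37 (SE 0.05), or 1.29-fold, with a limma adjusted p of 2.04e-06 over all probe sets, and it was -0.39, -0.26 and -0.41 within the array sets. The brightest Atp5g2 probe set, which represents the gene, differed by only -0.08 (unadjusted limma p = 0.0522). Whether the probe sets that differ do so through the RNA level or through how their probes match the parental sequences was not tested, for Amhr2 as for its neighbours.

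**Figure D2:**
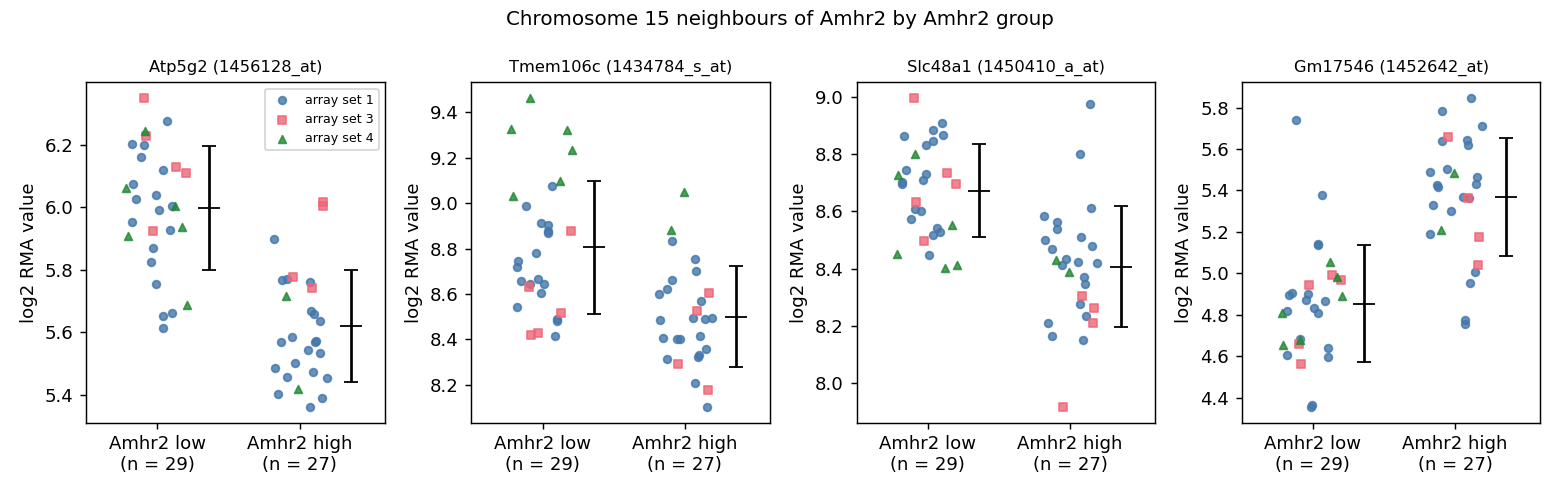
The log2 RMA value (y axis) of 1 probe set each of Atp5g2, Tmem106c, Slc48a1 and Gm17546 is plotted for every tumour in the Amhr2-low (n = 29) and Amhr2-high (n = 27) groups, with the mean ± SD beside the points. Atp5g2, Tmem106c and Slc48a1 sit lower and Gm17546 sits higher in the high group, each with overlapping ranges.

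The neighbourhood of Amhr2 held a higher share of small p-values than the rest of the genome. At an unadjusted p below 0.05 there were 24 of 135 genes within 10 Mb (17.8%), 7 higher and 17 lower in Amhr2-high tumours. The share was 5.32% on the rest of chromosome 15, 3.64% on other chromosomes and 3.85% over all genes tested. By distance it was 14.5% within 2 Mb, 18% from 2 to 5 Mb, 31.2% of 16 genes from 5 to 10 Mb, 5.88% from 10 to 20 Mb and 5.19% beyond. The differences were small, with a median of -0.02 and a median size of 0.054 over the 135 local genes. With 8.61%, chromosome 15 ranked first of 20 chromosomes, followed by chromosome 17 with 7.57%, where 44 of 47 such genes were lower, and chromosome 7 ranked last with 1.95%. Genes of a neighbourhood share their inheritance and are not independent, so these shares are descriptions.

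**Figure D3:**
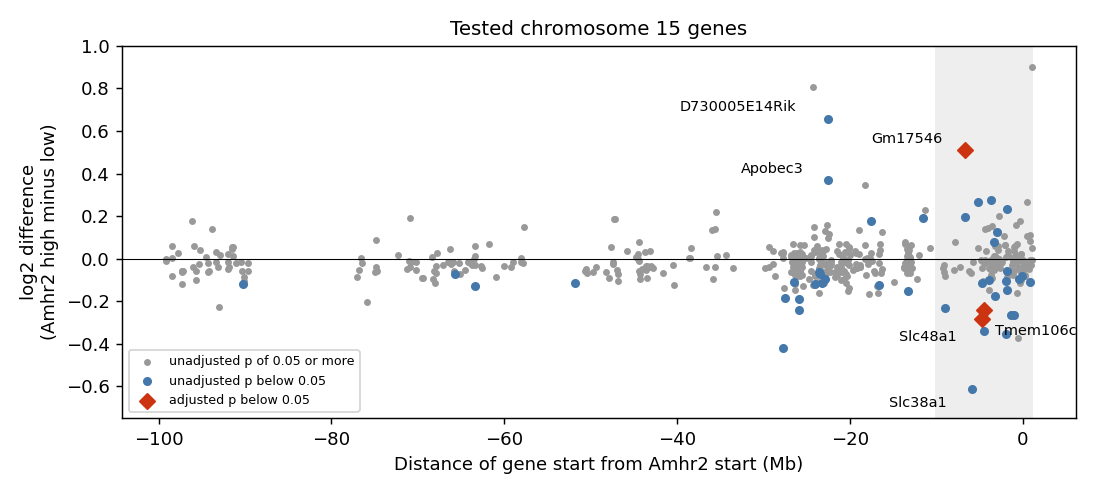
Each point is a tested chromosome 15 gene, with its distance from Amhr2 in Mb on the x axis and its log2 difference (Amhr2 high minus low) on the y axis; the shaded span is within 10 Mb, and colour marks genes with an unadjusted p below 0.05 and those called. Gm17546 at 0.51 and Slc48a1 and Tmem106c at -0.29 and -0.24 are the called genes, and most other points lie close to 0.

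**Figure D4:**
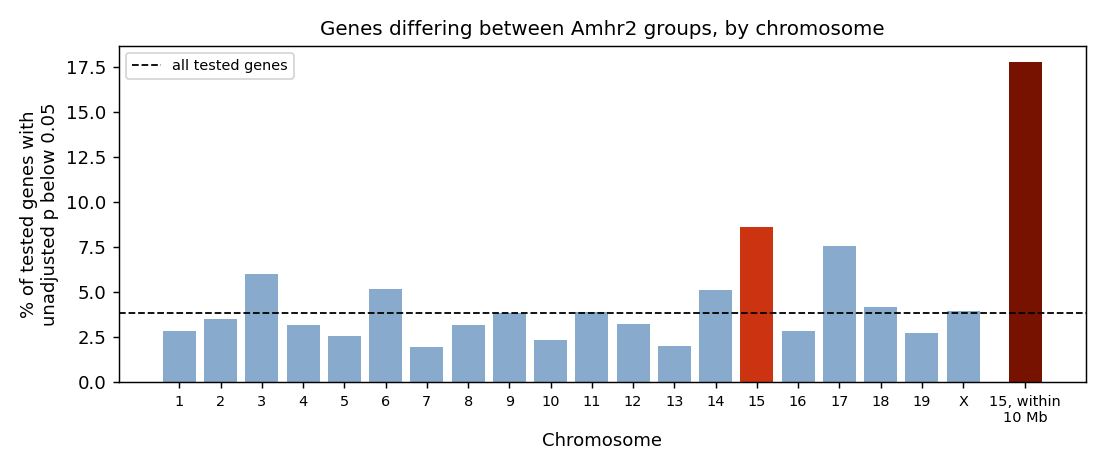
Bars give the percentage of tested genes with an unadjusted p below 0.05 on each chromosome and within 10 Mb of Amhr2, and the dashed line gives the 3.85% over all genes. Chromosome 15 stands at 8.61% and its local span at 17.8%.

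The genes next to Amhr2 differed little. The 10 nearest tested genes, from 0.149 Mb before to 0.0788 Mb after it, were Espl1, Pfdn5, Myg1, Aaas, Sp1, Prr13, Pcbp2, Map3k12, Tarbp2 and Npff. Their differences ran from -0.08 to 0.02 and 9 were below 0, but none was called. The transcription factor gene Sp1, at -0.08, was the only one of them with an unadjusted limma p below 0.05 (0.00752).

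Local differences were also seen in genes that did not pass the test, and those of Slc38a1 and Glycam1 were larger than that of any called gene. Slc38a1, a neutral amino acid transporter, had values of 6.22, 7.73 and 8.79 in Amhr2-high and 7.03, 8.21 and 9.81 in Amhr2-low tumours. Its difference was -0.61 (SE 0.16; limma adjusted p = 0.975), and it was -0.58, -0.10 and -1.55 within array sets 1, 3 and 4. Acvrl1, a type I receptor of the TGF-beta family found in endothelium, differed by -0.27, Csrnp2 by -0.35, Pced1b by 0.27 and the elastase gene Cela1 by 0.23, each with an adjusted p of 0.975. Fkbp11, a peptidyl-prolyl isomerase of the secretory pathway, differed by 0.27 on the probe set that represents it; another, at -0.21, had group means of 3.97 and 4.23, did not pass the filter on low values and is not read here. Glycam1, a milk mucin gene, had the largest local difference, 0.90 (SE 0.61), within ranges of 3.03 to 12.9 in high and 4.06 to 10.9 in low tumours. It was 1.76, -2.85 and 0.90 within array sets 1, 3 and 4, so its direction was not shared by them.

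Farther along chromosome 15, the split was set against genes whose own values formed separate clusters. A gene counted here if a least squares split put at least 20% of tumours on the smaller side and the sides' means were far apart for their spread (Ashman's D above 4.5; Amhr2 had 5.04). Of 37 such genes besides Amhr2, 3 lay on chromosome 15. Most of them, 23 of 37, divided the tumours as an array set did, with 92.9% or more of tumours on the matching side, and Trabd on chromosome 15 was among these. The other 14 shared at most 64.3%. None of the 37 was called by a two-sided Fisher's exact test of its side against the Amhr2 group (0% of 37), a test that does not take the array sets into account, against 4 at an unadjusted p below 0.05, of which D17H6S56E-5 on chromosome 17 and Tnfsf13os on chromosome 11 lay elsewhere. The genes closest to the split on this chromosome were D730005E14Rik and Apobec3, the antiviral cytidine deaminase, both 22.6 Mb before Amhr2. D730005E14Rik lay on the same side as Amhr2 in 40 of 56 tumours, being high in 16 of 27 Amhr2-high and 5 of 29 Amhr2-low tumours (Fisher's exact p = 0.00207, adjusted 0.0765 over 37 genes). For Apobec3 this was 39 of 56, with 16 of 27 and 6 of 29 (Fisher's exact p = 0.00568, adjusted 0.105). Over the 14 genes that do not follow an array set, an alternative chosen after seeing the data, the adjusted values of the Fisher's exact test were 0.0290 for D730005E14Rik and 0.0398 for Apobec3, both past 0.05. Apobec3 values were 8.06, 9.13 and 9.99 in Amhr2-high and 8.15, 8.46 and 9.51 in Amhr2-low tumours, a difference of 0.37 (SE 0.13; limma adjusted p = 0.975). Of the 34 such genes on other chromosomes, 22 followed an array set and so repeat nearly the same split. Among the remaining 12, the median share of tumours on the matching side, in whichever direction matched better, was 53.6% and the highest 66.1%.

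The sides of the tumours are set beside each other from locus to locus as a description. Gm17546 and the Atp5g2 probe set were picked because they differed between the Amhr2 groups in these same tumours. Their agreement with Amhr2 therefore follows in part from that choice. Amhr2 and Gm17546 agreed in 47 of 56 tumours and Gm17546 and Apobec3 in 44, while D730005E14Rik and Apobec3, close neighbours, agreed in 55. Amhr2 and the Atp5g2 probe set took opposite sides in 47 tumours, and the Atp5g2 probe set and Gm17546 in 42. The Atp5g2 probe set was off the side given by Amhr2 in 9 tumours and Gm17546 in 9, with 2 tumours in both counts. D730005E14Rik was off it in 16 tumours, in 6 of which Gm17546 was off too. The Atp5g2 probe set and Gm17546 had a D of only 3.54 and 3.40, so tumours near their midpoints could fall on either side.

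On the other chromosomes no gene was called, and the differences were bounded as follows. The median half-width of the 95% interval was 0.105 over 12009 genes, and 98.3% had a half-width under 0.5. In 99.4% of genes the interval lay wholly within a 2-fold change either way. The genes with the smallest p were Dtna (-0.19), a dystrobrevin, Gm14057 (0.21), the p53 regulator Mdm4 (-0.12), the m6A reader Ythdc1 (-0.10) and the zinc finger gene Zfp949 (-0.34). All had a limma adjusted p of 0.975 and are not called.

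The ligand, partners and targets of AMHR2 were taken from a list of AMH and BMP signalling genes. In it, 19 of 24 genes were measured well enough to test, 0 were called and 1 had an unadjusted limma p below 0.05. Over all genes these shares were 0.0239% and 3.85%, so counts of this size are what the background gives. The median difference was -0.03, beside -0.01 over all genes, and the range was from -0.23 for the ligand Bmp2 to 0.09 for the target Id3. The hormone gene Amh differed by 0.02, the type I receptors Bmpr1a and Acvr1 by -0.02 and -0.01, and the signal transducer Smad5 by -0.03. Smad1 was the gene with the unadjusted p (-0.11, p = 0.0238 by limma). The direct targets Id1 and Id2 differed by -0.08 and -0.10. Of 14 genes of gonadal cells, where Amhr2 is normally active, 6 could be tested, 0 were called and none had an unadjusted limma p below 0.05, with a median difference of -0.02; the ovarian factor Foxl2 differed by -0.01 and the steroid import gene Star by 0.02.

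The keratin and Hoxc clusters also lie on distal chromosome 15. Of 25 type II and neighbouring keratin genes 19 were tested and 0 were called, against 0.0239% of all genes, and the median difference was -0.00. A count of 0 is near that background. Krt7, a luminal keratin, ran from 8.66 through 9.09 to 10.6 in Amhr2-high and from 8.72 through 9.48 to 11.2 in Amhr2-low tumours, a difference of -0.27 (unadjusted limma p = 0.0261), which was -0.40, 0.30 and -0.27 within array sets 1, 3 and 4. The luminal pair Krt8 and Krt18 both differed by 0.00, and the basal keratin Krt5 by 0.16. The positional genes Hoxc6, Hoxc8 and Hoxc9 differed by 0.11, 0.27 and -0.02, none called.

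Over all 22 lists, which covered cell types, the cell cycle, interferon response and other groups, 227 of 288 genes were tested, 0 were called and 10 (4.41%) had an unadjusted limma p below 0.05, beside 3.85% of all genes. The markers of skeletal muscle, a tissue that lies beside mammary fat, had the largest median difference, 0.95. All 16 of its tested members lay above 0, led by the fast myosin gene Myh4 at 1.53 (SE 0.72) and the troponin gene Tnnc2 at 1.36 (SE 0.67), and 3 had an unadjusted limma p below 0.05 (0.0374 to 0.0469). The mean level of these markers ran from 5.23 through 8.76 to 11.8 in Amhr2-high and from 4.60 through 7.99 to 11.5 in Amhr2-low tumours, so the groups overlapped over nearly their whole range. Their median was 0.77, 1.27 and 1.57 within array sets 1, 3 and 4. The adipocyte markers had a median difference of 0.36, with 0.45, -0.44 and 1.11 within the array sets. The milk protein genes had 0.25, with 0.46, -0.95 and 0.46. The 12 macrophage markers all lay above 0 with a median of 0.12, and within the array sets it was 0.18, -0.12 and 0.16. These last 3 lists thus pointed the other way in array set 3. With scores of muscle, adipocyte, fibroblast and T and NK cell markers in the fit, Gm17546 (0.47) and Slc48a1 (-0.27) were still called and Tmem106c (-0.22; limma adjusted p = 0.143) was not. The epithelial keratins Krt8 and Krt18 were high in every tumour, with lowest values of 11.9 and 11.8, both far above the arrays' median of 5.42. Among other luminal markers Elf5 and Epcam were also high, with means of 12.2 and 11.8 in Amhr2-high and 12.1 and 11.8 in Amhr2-low tumours. Some mammary markers were lower. The progesterone receptor gene Pgr ran from 3.10 to 5.59, and the lowest values of Foxa1 and of the basal keratin Krt17 were 4.52 and 5.18.

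**Figure D5:**
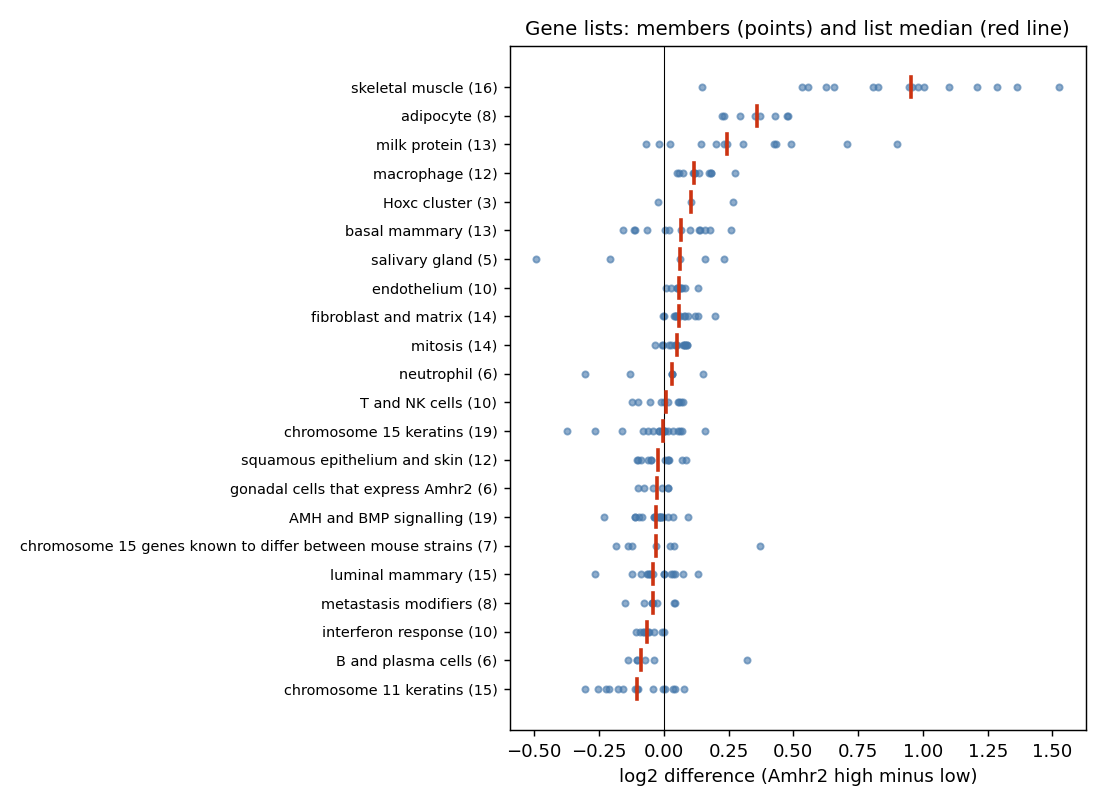
Points are the log2 differences (Amhr2 high minus low, x axis) of the tested members of each of 22 gene lists (y axis, number tested in brackets), and red bars are list medians. Skeletal muscle lies farthest to the right with a median of 0.95, and most other list medians lie near 0; no member was called.

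The 12 arrays outside the rule, whose 18S controls read 8.97 or more, were used as tumours that had not chosen the groups. Their Amhr2 values were 4.57, 4.94, 5.18, 5.26, 5.32, 5.4, 5.50, 5.52, 6.46, 6.60, 7.29 and 7.43, so 3 fell above 6.5. Of these arrays, 2 shared an animal number with the 56, and both repeats fell in the same Amhr2 group as their partner. The remaining 10 gave 2 high and 8 low tumours. The high tumours read 6.60 and 7.29. The value of 6.60 and the low value of 6.46 lay in the interval that was empty among the 56, so the threshold did not divide these arrays clearly. No gene was called by limma in them (0 of 12561, 0%), against 547 at an unadjusted p below 0.05. Gm17546 differed by 0.62 (SE 0.25, unadjusted limma p = 0.0281, adjusted 0.996), above 0 as in the 56. Its high values were 5.42 and 5.94, and the lower of them lay within the low range of 4.51 to 5.52. Slc48a1 differed by 0.09 (SE 0.17) and Tmem106c by -0.03 (SE 0.22), within their error, so these arrays give no direction for either. In these arrays the Atp5g2 probe set differed by -0.33 (unadjusted limma p = 0.0520, adjusted 0.995).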

How the data were processed

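The deposited values are RMA log2 values of Affymetrix arrays, per the submitters' processing notes. The version and settings are not given, and log2 was read from the range, 1.68 to 14.57. Raw intensities were not used here. Platform annotation named 34958 of 45101 probe sets with 1 gene, and a RefSeq table (GRCm38.p6) gave chromosomes and distances. Distances run from the lower coordinate of Amhr2 to that of the other gene, whatever the strand. The array's build is not named.

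The 56 arrays were compared with limma 3.58.1 in R 4.3.3 (lmFit and eBayes), as Amhr2 high minus low with the array set as a block and Benjamini-Hochberg adjustment over all genes. The method was tested on simulated data. Its probe set of highest mean represented a gene, which entered the test if its 95th percentile exceeded the median of all values (5.42). All Amhr2 probe sets were left out of the tests. An array set is a split that 20 or more probe sets from 10 or more chromosomes share exactly, with D (Ashman's separation of 2 clusters) above 4.5. Array set 2 is the 12 arrays outside the rule, and array set 1 is the remainder that no such split set apart. No technical replicates stand within the 56, and the number of arrays limits the precision.

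Named were the called genes, the 5 genes of smallest p on other chromosomes, list members by size, the AMH and BMP, keratin and Hoxc lists, genes nearest to Amhr2 and those most like it. The local genes without a call and the sides of Atp5g2 and Gm17546 were picked once their values were known. The split, the lists and the tests were chosen with earlier results of these data known.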

Additional observations from a re-analysis of the deposited data

How the results depend on the processing

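The 3 local genes called became 0 with array set 1 alone and 0 with the 22 tumours within 0.5 of the threshold left out, which leaves 34 tumours. Alternatives chosen after seeing the data gave 0 with array set 3 alone and 0 with array set 4 alone; these use fewer tumours. At an unadjusted limma p below 0.05 these fits held 23, 21, 8 and 6 local genes. The other settings gave 2 to 4. Gm17546 was still called in 10 of 14 alternatives, Slc48a1 in 10 of 15 and Tmem106c in 7 of 15. Some of these repeat the main fit: the least squares split gave the same groups of 27 and 29 tumours. The probe set and filter settings that test Gm17546 refit the same values for it, with a difference of 0.51. In the alternatives that call these 3 genes the group differences ran from 0.47 to 0.52, from -0.29 to -0.25 and from -0.38 to -0.24. This leaves aside the fit with Amhr2 as a continuous term, whose slope is another quantity. With array set 1 alone their limma adjusted p-values were 0.0857, 0.539 and 0.551, and with the near tumours left out 0.0969, 0.391 and 0.897. On other chromosomes 2 genes were called in array set 3 alone, Chdh (-0.76) and Stk25 (-1.18), which differed by -0.00 and 0.03 over the 56 tumours, and 0 in the other alternatives. Elsewhere on chromosome 15, 0 were called in all 15. With D above 5, 1 clustered gene, D730005E14Rik, was called by Fisher's exact test (adjusted p = 0.0476), and 2 were without the genes that follow an array set, an alternative chosen after seeing the data. In the left-out arrays, a least squares split gave 0.60 (SE 0.20) for Gm17546, -0.04 (SE 0.15) for Slc48a1 and -0.07 (SE 0.20) for Tmem106c, the last pair within their error. No called gene reversed among the 139 named genes, but 209 differences that were not called changed sign. No paired analysis was possible because the labels form 1 group with no replicate numbers. The cause of these changes was not tested.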
